A study of Rattus norvegicus with 9 samples.

Results

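The miR-17-92 cluster and its paralogue miR-106b-25 are described here by 10 mature miRNAs, taken by name from a deposited table of 765. miR-17-92 contributed 6 of them (miR-17-5p, miR-18a-5p, miR-19a-3p, miR-19b-3p, miR-20a-5p and miR-92a-3p) and miR-106b-25 contributed 4 (miR-106b-5p, miR-106b-3p, miR-93-5p and miR-25-3p). Small RNA was sequenced from corneas of Wistar rats labelled as 6 weeks old, with 3 libraries each of normal cornea, isograft and allograft. The terms mean a genetically matched donor for an isograft and a differing one for an allograft, but the labels give Wistar for all 3 groups and name neither a donor strain, a time after surgery nor the state of a graft. A library is called by its group with the title's number, 12, 34 or 56, which the labels leave unexplained. Separate animals are not stated for the replicates. The p-values therefore cover only the spread between these samples, and that spread may be technical. In whole corneas, fewer cells of a type and less RNA per cell cannot be told apart.

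miR-17-92 is transcribed as 1 long RNA that is cut into a series of hairpins, and it is known for driving cell division in lymphocytes and in tumours, with Myc and E2F factors among its activators. miR-106b-25 lies within Mcm7, a gene of the DNA replication helicase, and is transcribed with it. A miRNA finds its targets mainly by pairing of its seed, bases 2 to 8, so miRNAs with the same seed share many targets. Members of both clusters with the seed of miR-17 repress the cell cycle inhibitor p21.

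The 10 miRNAs fall into 5 seed groups, and the sequences below show which members of the clusters share a seed. They were taken from RefSeq (build GRCr8), where all 10 were found, and the capitals mark the seed (rno stands for the rat). The group of miR-17 spans both clusters.
rno-miR-17-5p: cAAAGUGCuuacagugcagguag
rno-miR-20a-5p: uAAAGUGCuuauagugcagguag
rno-miR-106b-5p: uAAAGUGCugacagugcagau
rno-miR-93-5p: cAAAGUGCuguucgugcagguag
rno-miR-18a-5p: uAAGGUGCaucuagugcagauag
rno-miR-19a-3p: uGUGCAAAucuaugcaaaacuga
rno-miR-19b-3p: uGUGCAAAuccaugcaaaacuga
rno-miR-92a-3p: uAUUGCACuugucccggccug
rno-miR-25-3p: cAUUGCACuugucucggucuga
rno-miR-106b-3p: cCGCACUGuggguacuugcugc

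The seed of miR-18a differs from that of miR-17 by 1 base, A4G counted from the 5′ end of miR-17-5p. miR-19a-3p and miR-19b-3p differ by 1 base of 23, U11C, and miR-17-5p and miR-20a-5p by 2 bases of 23. miR-92a-3p and miR-25-3p, 1 from each cluster, differ at 3 of 21 positions. The rule by which the authors placed reads that match several such miRNAs is not given in the sources used here, so the split between near-identical members is uncertain.

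In the GRCr8 sequence table the mature miRNAs of miR-17-92 lie within 762 bases on the plus strand (chr15:98587861-98588622), and those of miR-106b-25 within 472 bases on the minus strand (chr12:22156652-22157123), inside Mcm7. A paralogue on the minus strand of the X chromosome (chrX:137342788-137343637) makes 3 of the 10 as well: miR-17-5p, miR-19b-3p and miR-92a-3p each appear there with the same mature sequence. Reads of these 3 cannot be assigned to 1 chromosome. miR-18a-5p, miR-19a-3p and miR-20a-5p appear at miR-17-92 alone in that table.

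Values are RPM, reads scaled to a library total that also counts reads outside the listed miRNAs. That total ran from 11001459 to 12153889 reads, and the listed miRNAs held 26.4% to 65.6% of it. The 281 miRNAs that reached 5 RPM in 3 or more libraries were tested by a moderated linear model (limma) on log2(RPM + 1) with Benjamini-Hochberg adjustment over the 281 and a threshold of 0.05. Fold changes below are differences on that scale, which understates the change of low miRNAs. All 10 members were tested, but miR-18a-5p reached 5 RPM only in allografts, so the filter let it in by the group where it was high. The corneal epithelial markers used to check the tissue were present: miR-184 ranged from 24753 to 339752 RPM and miR-205 from 3832 to 25057. Isograft 12 stood apart, and the median tested miRNA was at 53.4% of its mean in the other isografts.

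In normal corneas the mean levels of the 10 miRNAs ran from 0.636 to 1017 RPM. The most abundant were the miRNAs with the seed AUUGCAC, miR-92a-3p at 1017 RPM ± 160 and miR-25-3p at 846 ± 158 (SD, n = 3), whose spreads overlap. miR-20a-5p at 425 ± 41.8 and miR-93-5p at 342 ± 46.3 followed, then miR-17-5p at 151 ± 13.2 and miR-106b-3p at 102 ± 19.8. Next in order, miR-106b-5p at 33.5 ± 9.80 and miR-19b-3p at 27.8 ± 1.03 did not differ beyond their spread. miR-19a-3p at 4.3 ± 1.09 and miR-18a-5p at 0.636 ± 0.181 were the lowest, the last resting on 5 to 9 reads a library. Mature miRNAs are of nearly the same length, but the efficiency of adapter ligation can differ between them, so this order is one of reads.

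**Figure D1:**
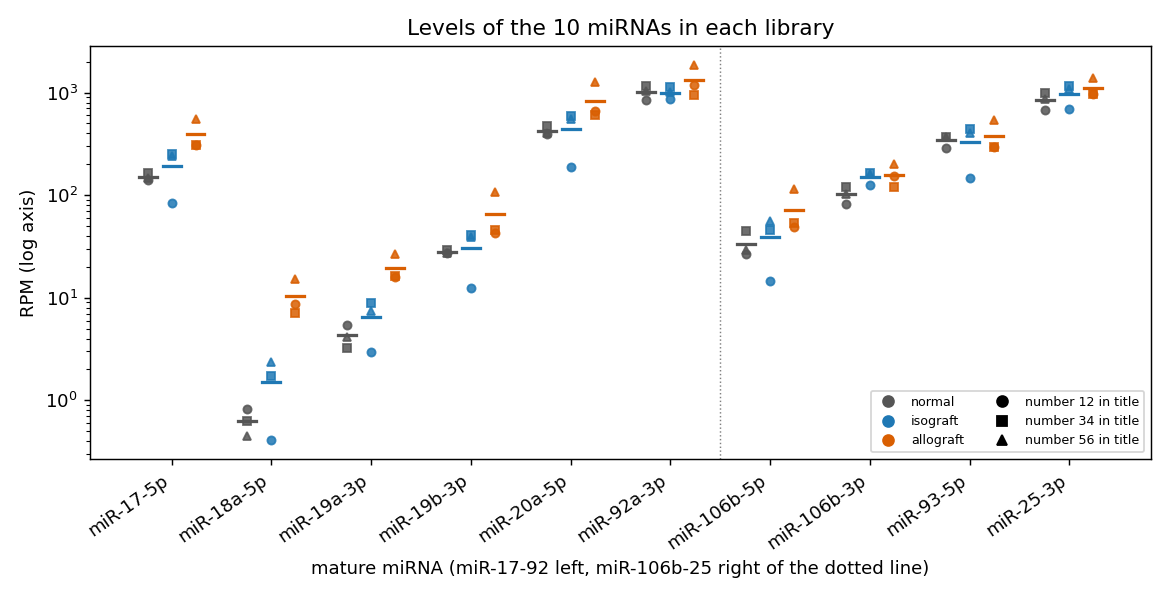
RPM (log axis) of each miRNA in the 9 libraries, with the group as colour, the number in the title as symbol and the group mean as a bar. miR-18a-5p stays at or below 2.36 RPM in normal corneas and isografts and lies between 7.09 and 15.4 in allografts, while miR-25-3p overlaps among the groups.

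Of miR-17-92 in allografts, miR-18a-5p, miR-19a-3p, miR-17-5p and miR-19b-3p were higher than in normal corneas, whereas miR-20a-5p and miR-92a-3p did not pass the test. The threshold fell between miR-19b-3p at 1.08 (SE 0.45) and miR-20a-5p at 0.90 (SE 0.41) on the log2 scale, which do not differ beyond their SE. Against isografts miR-18a-5p, miR-19a-3p and miR-17-5p were higher. In isografts against normal corneas no member of either cluster passed (limma; 0 of the 10 also at an unadjusted p under 0.05, against 0 by edgeR and 1, miR-106b-3p, by DESeq2). The counts were thus 4 of 10 higher against normal corneas, where 23.1% of all 281 miRNAs were higher and 24.2% lower, and 3 of 10 against isografts, where 13.5% were higher and 21.0% lower. In isografts 16.7% were higher and 4.63% lower. Every allograft was above every normal cornea for 6 of the 10 members, against 29.9% of the 281, and above every isograft for 5, against 16.4%. All these allograft counts include miR-18a-5p, which passed the filter only through the allografts, so they are a description. For 1 of the 10, miR-106b-3p, every isograft was above every normal cornea, against 22.4%.

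The median log2 fold change of the 6 miR-17-92 miRNAs was 0.08 in isografts and 1.20 in allografts against normal corneas, and 1.12 in allografts against isografts. For the 4 of miR-106b-25 it was 0.12, 0.49 and 0.24, and over all 281 it was 0.05, -0.14 and -0.29.

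Among the 10, miR-18a-5p changed most. It had 0.817, 0.636 and 0.454 RPM in normal corneas, 0.411, 1.73 and 2.36 in the isografts and 8.63, 7.09 and 15.4 in the allografts (libraries 12, 34 and 56 in each case). The allografts lay above every other library, and the isografts overlapped the normal corneas. Allografts exceeded normal corneas by 2.73 on the log2 scale (SE 0.35, limma adjusted p = 1.9e-07) and isografts by 2.21 (SE 0.35, adjusted p = 2.3e-05). As miR-18a-5p passed the filter only through the allografts, these 2 results are a description, and their p-values lend no added support. Allograft libraries held 78 to 169 of its reads. Against normal corneas isografts stood at 0.53 (SE 0.35, adjusted p = 0.372), which became 0.89 (adjusted p = 0.0232) without isograft 12.

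miR-19a-3p and miR-19b-3p share a seed and are parts of the same transcript. miR-19a-3p was at 5.45, 3.27 and 4.18 RPM in normal corneas, 2.96, 8.91 and 7.45 in the isografts and 16.1, 16.2 and 26.8 in the allografts. The log2 fold change was 1.95 (SE 0.39, limma adjusted p = 0.000165) against normal corneas and 1.54 (SE 0.39, adjusted p = 0.00359) against isografts, with no overlap in either case. miR-19b-3p, which had 6.79 times its reads in normal corneas on average, changed less. It was at 27.2, 29.0 and 27.2 RPM in normal corneas, 12.5, 40.5 and 39.0 in the isografts and 43.0, 46.3 and 108 in the allografts. The 3 allografts lay above all other libraries, but 2 of them by a small margin. The difference of 1.08 on the log2 scale against normal corneas (SE 0.45, limma adjusted p = 0.0482) lost the call in 7 of 21 other settings, among them each normal library, allograft 34 or allograft 56 left out (0.66 with adjusted p = 0.225 for the last), and its 1.11 against isografts (SE 0.45, adjusted p = 0.0538) gained it in 10. The ratio of miR-19b-3p to miR-19a-3p was 5.0 to 8.86 in normal corneas, 4.22 to 5.23 in the isografts and 2.67 to 4.03 in the allografts.

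miR-17-5p, the member that gives the cluster its name, was at 139.6, 165 and 147 RPM in normal corneas, 83.7, 252 and 239 in the isografts and 309.7, 312 and 550.4 in the allografts. All allografts exceeded all other libraries. The log2 fold change was 1.32 (SE 0.41, limma adjusted p = 0.00888) against normal corneas and 1.13 (SE 0.41, adjusted p = 0.0322) against isografts. Without miR-184 in the RPM, the first was 0.88 and lost the call (adjusted p = 0.0632). The difference from isografts lost it in 7 of 22 other settings. It was 0.61 (adjusted p = 0.127) without isograft 12, the library that stood apart, and was also not past the threshold without allograft 34, allograft 56 or normal 56 (adjusted p = 0.0608, 0.103 and 0.0635). The other settings were no filter, RPM without miR-184 and a fit of only the groups compared.

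miR-20a-5p is the closest relative of miR-17-5p within the cluster. It was at 396, 473 and 407 RPM in normal corneas, 188, 592 and 551 in the isografts and 655, 598 and 1259 in the allografts. Here too the allografts were above all other libraries, although allograft 34 exceeded isograft 34 by little. The log2 fold changes of 0.90 against normal corneas (SE 0.41, limma adjusted p = 0.0713) and 1.00 against isografts (SE 0.41, adjusted p = 0.057) missed the threshold, and passed it in 7 and 8 of 22 other settings. The ratio of miR-20a-5p to miR-17-5p was 2.76 to 2.86 in normal corneas, 2.24 to 2.35 in the isografts and 1.92 to 2.29 in the allografts, so the normal corneas stood apart from the grafts.

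miR-92a-3p, the most abundant member and one also found in red blood cells and platelets, overlapped among the groups. It was at 846, 1164 and 1041 RPM in normal corneas, 870.1, 1121 and 1006 in the isografts and 1193, 943 and 1870.1 in the allografts. Allografts differed from normal corneas by 0.35 on the log2 scale (SE 0.35, limma adjusted p = 0.428) and from isografts by 0.37 (SE 0.35, adjusted p = 0.42). The red blood cell markers miR-451-5p, miR-486, miR-144-3p and miR-144-5p summed to 82.4 to 343 RPM in normal corneas and 14.0 to 181 in the isografts. In allografts their sum ran from 18.5 to 1068 RPM and was highest in allograft 34. The part of blood in the level of miR-92a-3p was not tested. miR-144-3p was at 0 in normal 12 only, and miR-144-5p was at 0 in normal 12 and isograft 12.

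**Figure D2:**
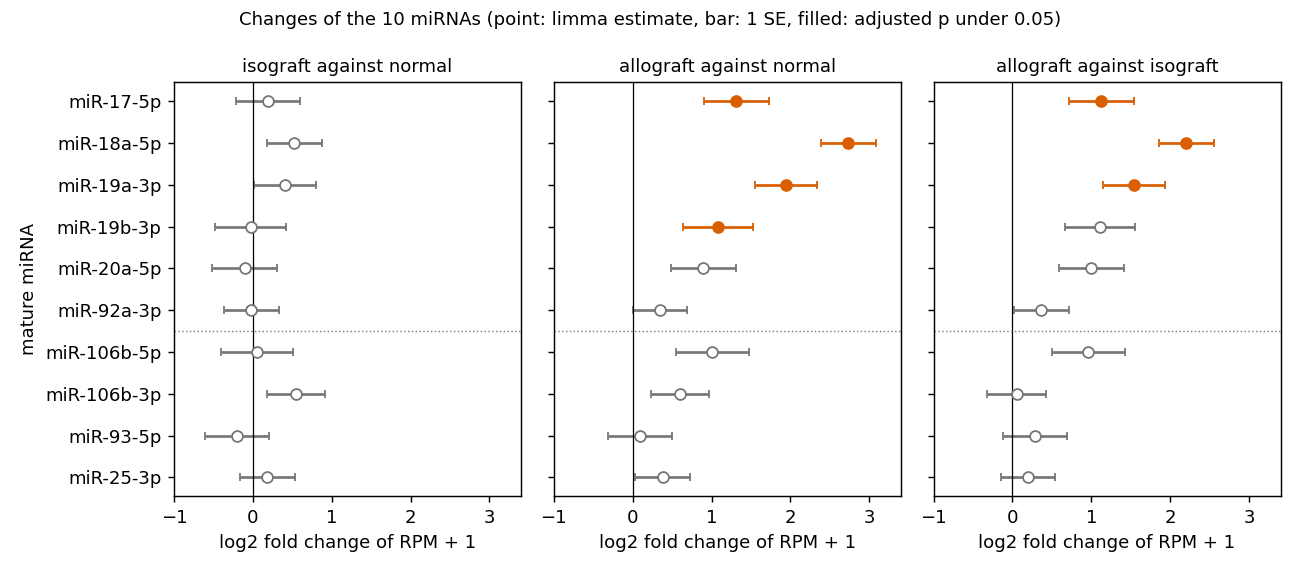
Log2 fold change of RPM + 1 for each miRNA in the 3 comparisons, with bars of 1 SE (limma, 3 libraries a group) and filled points for an adjusted p under 0.05. Filled points occur only above the dotted line, among miR-17-92. They are largest for miR-18a-5p at 2.73 and 2.21, which passed the filter only through the allografts.

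The make-up of the miR-17-92 reads differed between normal corneas and allografts. miR-92a-3p held 59.8% to 64.0% of the summed RPM of the 6 miRNAs in normal corneas and 48.8% to 53.6% in allografts. In isografts it held 75.2% in isograft 12 and 55.6% and 54.5% in the others. miR-17-5p held 9.01% to 9.87% in normal corneas and 13.9% to 16.2% in allografts, without overlap. In isografts it held 7.23% in isograft 12. It held 12.5% and 12.9% in isografts 34 and 56, which thus lay between the normal corneas and the allografts. The share of miR-18a-5p was 0.0279% to 0.0577% in normal corneas, 0.036% to 0.128% in the isografts and 0.369% to 0.401% in allografts. These shares do not depend on the library total.

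**Figure D3:**
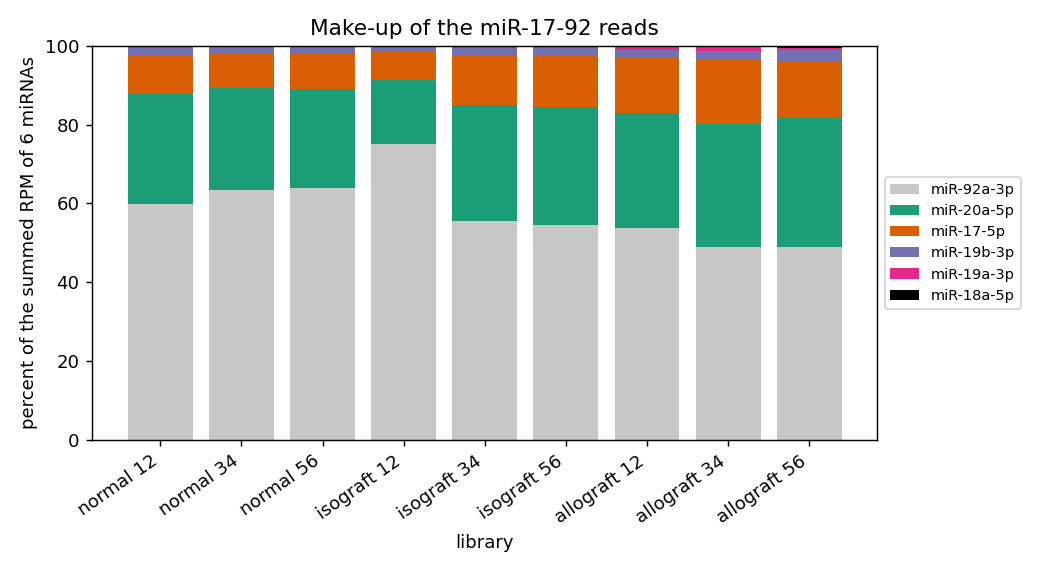
Stacked bars give the percent of the summed RPM of the 6 miR-17-92 miRNAs that each miRNA held in each library. The grey part, miR-92a-3p, is 75.2% in isograft 12 and at most 53.6% in the allografts.

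Of miR-106b-25, no member passed the test in any of the 3 comparisons of the main fit, but this depended on the scaling. In allografts against normal corneas miR-106b-5p, miR-106b-3p and miR-25-3p were called higher when scaled by the median of ratios or to the listed sum. The same held by edgeR and DESeq2, and miR-93-5p was called higher with the listed sum alone. Over all 281 miRNAs, 105 were higher by the median of ratios and 142 with the listed sum. In the main fit miR-106b-5p, with the seed of miR-17, came closest. It was at 26.5, 44.7 and 29.3 RPM in normal corneas, 14.7, 45.5 and 56.4 in the isografts and 48.5, 53.4 and 114 in the allografts. The allografts were above the normal corneas and overlapped the isografts. Its log2 fold change was 1.01 against normal corneas (SE 0.46, limma adjusted p = 0.0703) and 0.96 against isografts (SE 0.46, adjusted p = 0.102). The first passed in 9 of 22 other settings, and was called without isograft 12 (adjusted p = 0.00574) and without allograft 12 (adjusted p = 0.045).

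The other arm of that hairpin, miR-106b-3p, was the more abundant of the pair in all 9 libraries. It was at 82.0, 121 and 103 RPM in normal corneas, 125, 163 and 160.2 in the isografts and 153, 119 and 200.3 in the allografts. All isografts were above all normal corneas, while allograft 34 fell within the normal range. The log2 fold changes were 0.55 in isografts (SE 0.37, limma adjusted p = 0.372) and 0.60 in allografts (SE 0.37, adjusted p = 0.188). The ratio of the 3p to the 5p arm was 2.72 to 3.53 in normal corneas, 2.84, 3.59 and 8.46 in isografts, the last in isograft 12, and 1.75 to 3.15 in allografts.

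miR-93-5p has the seed of miR-17 and lies between the other hairpins of its cluster. It was at 289, 372 and 366 RPM in normal corneas, 146, 441 and 400.5 in the isografts and 297, 295 and 541 in the allografts, with overlap in every comparison. Its log2 fold change in allografts against normal corneas was 0.09 (SE 0.40, limma adjusted p = 0.883). miR-25-3p, with the seed of miR-92a, was at 680.4, 996 and 863 RPM in normal corneas, 686, 1159 and 1075 in the isografts and 959, 975 and 1377 in the allografts. Its log2 fold change in allografts was 0.38 against normal corneas (SE 0.35, limma adjusted p = 0.384) and 0.20 against isografts (SE 0.35, adjusted p = 0.685), again with overlap.

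Set side by side, the clusters parted in allografts. The summed RPM of miR-17-92 was 1415, 1835 and 1626 in normal corneas, 1157, 2016 and 1845 in the isografts and 2225, 1922 and 3829.5 in the allografts. That of miR-106b-25 was 1078, 1534 and 1361 in normal corneas, 971, 1809 and 1693 in the isografts and 1457, 1442 and 2232 in the allografts. The ratio of the sums was 1.31, 1.20 and 1.19 in normal corneas, 1.19, 1.11 and 1.09 in the isografts and 1.53, 1.33 and 1.72 in the allografts. Every allograft thus had a higher ratio than every other library, and the isografts were just below the normal corneas. On the log2 scale the means were 0.30 ± 0.0779, 0.18 ± 0.0671 and 0.60 ± 0.182 (SD, n = 3), a difference of 0.30 between allografts and normal corneas. The lowest allograft, allograft 34 at 0.41, and the highest normal cornea, normal 12 at 0.39, were nearly level. As the members were chosen with results of these data known, the ratio has no p-value.

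Leaving out the most abundant pair made the gap larger. Without miR-92a-3p and miR-25-3p the difference between allografts and normal corneas was 0.75 on the log2 scale, and without the 3 miRNAs that the X chromosome can also make it was 0.58. In both settings every allograft remained above every normal cornea and every isograft. In the second, what was left of miR-17-92 was nearly all miR-20a-5p, set against the whole of miR-106b-25. In normal corneas miR-20a-5p had a mean of 425 RPM, beside 4.3 for miR-19a-3p and 0.636 for miR-18a-5p. That setting thus mostly describes miR-20a-5p, which missed the threshold on its own. The ratio of miR-92a-3p to miR-25-3p, which share a seed, overlapped: it was 1.17 to 1.24 in normal corneas, 0.936 to 1.27 in the isografts and 0.967 to 1.36 in the allografts. By contrast, miR-17-5p over miR-93-5p, which also share a seed, was 0.483, 0.444 and 0.402 in normal corneas, 0.573, 0.571 and 0.596 in the isografts and 1.04, 1.06 and 1.02 in the allografts. The 3 groups did not overlap, and the SD within groups was 0.0406, 0.0143 and 0.0205. How often other pairs of miRNAs part the groups was not counted, and miR-17-5p can also come from the X chromosome. miR-20a-5p over miR-93-5p was 1.11 to 1.37 in normal corneas, 1.28 to 1.38 in the isografts and 2.03 to 2.33 in the allografts. For this pair the isografts overlapped the normal corneas, and only the allografts stood apart. Isograft 12, although low in miR-17-5p, miR-20a-5p and miR-93-5p, had ratios among these 3 close to those of the other isografts.

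**Figure D4:**
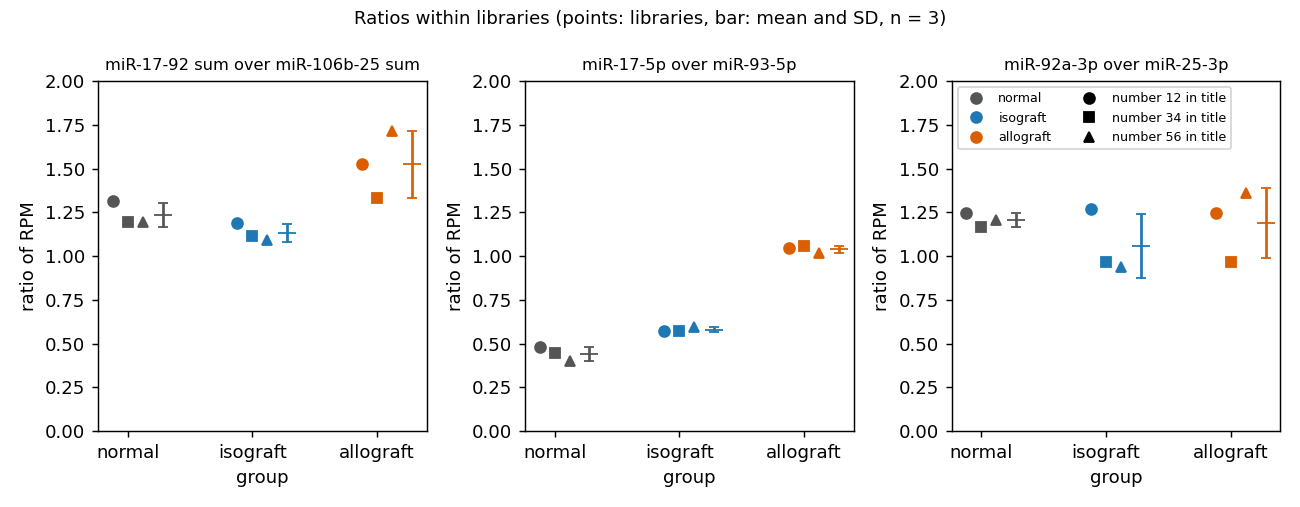
Ratios of RPM within each library, by group, with symbols for the number in the title and a bar for mean and SD (n = 3). The ratio of miR-17-5p to miR-93-5p lies between 0.402 and 0.483 in normal corneas and between 1.02 and 1.06 in allografts, while that of miR-92a-3p to miR-25-3p overlaps.

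Summed by seed, the listed miRNAs with AAAGUGC (both clusters and miR-20b-5p) had 953 RPM ± 101 in normal corneas, 1006 ± 498 in the isografts and 1716 ± 692 in the allografts (SD, n = 3). The miR-19 seed GUGCAAA had 32.1 ± 0.687, 37.1 ± 18.8 and 85.4 ± 42.8 RPM. The seed AUUGCAC, with miR-92a-3p, miR-25-3p, miR-32-5p, miR-363-3p and miR-92b-3p, had 1907 ± 324, 2013 ± 394 and 2642 ± 774 RPM. The first pair of seed sums lay higher in every allograft than in every normal cornea, and the last overlapped.

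The passenger arms, the other strands of the same hairpins, tell apart gene copies whose main arm is identical. These are the 3p arms of the copies of miR-17, with the miRNAs of the X-linked cluster described below, the capitals again marking the seed.
rno-miR-17-1-3p: aCUGCAGUgaaggcacuugugg
rno-miR-17-2-3p: aCUGCACUgcaagcacuucuuac
rno-miR-20b-5p: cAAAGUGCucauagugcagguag
rno-miR-363-3p: aAUUGCACgguauccaucugu

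miR-17-1-3p comes from miR-17-92 and miR-17-2-3p from the X-linked copy, listed there as Mir106a, and they differ at 6 of 22 positions. miR-17-1-3p had 12, 9 and 12 reads in normal corneas, 5, 29 and 23 in the isografts and 27, 28 and 80 in the allografts. miR-17-2-3p had 3, 4 and 1 reads in normal corneas, 2, 11 and 4 in the isografts and 150, 131 and 361 in the allografts. In normal corneas the chromosome 15 copy thus gave 80.0% (95% exact binomial interval 51.9 to 95.7), 69.2% (38.6 to 90.9) and 92.3% (64.0 to 99.8) of these reads. In isografts it gave 71.4% (29.0 to 96.3), 72.5% (56.1 to 85.4) and 85.2% (66.3 to 95.8), and in allografts 15.3% (10.3 to 21.4), 17.6% (12 to 24.4) and 18.1% (14.7 to 22.1). The allografts lay below all other libraries, and their intervals do not reach those of the others. Intervals cover counting error only. How much of miR-17-5p each copy makes cannot be read from these shares, since passenger strands may be kept to different extents.

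**Figure D5:**
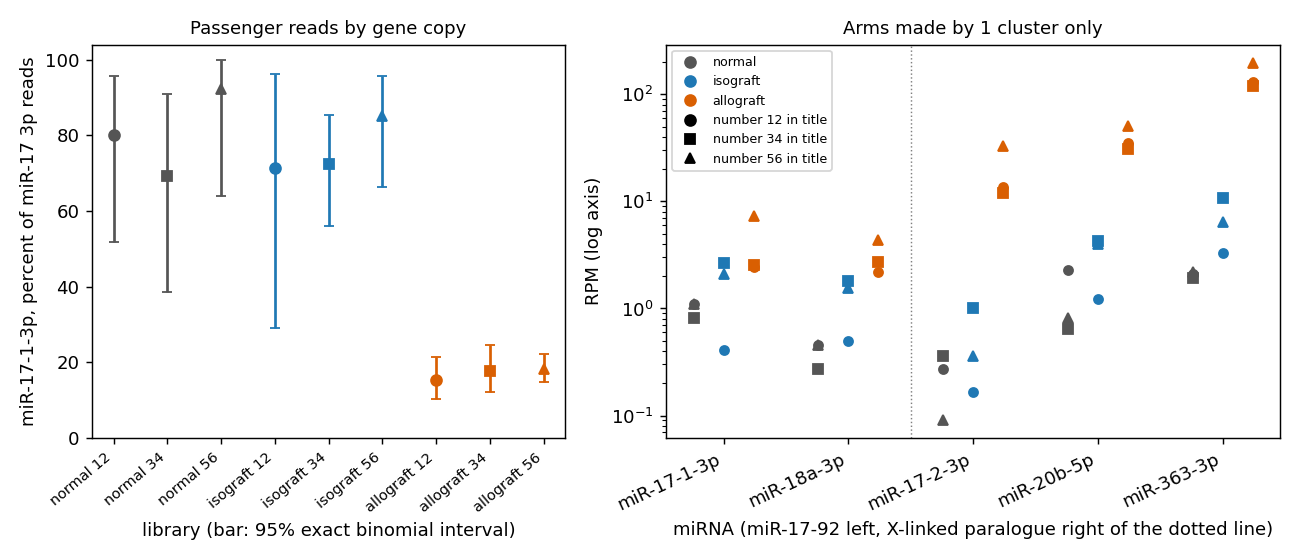
Left, percent of miR-17 3p arm reads that came from miR-17-1-3p in each library, with 95% exact binomial intervals, between 69.2% and 92.3% outside the allografts and between 15.3% and 18.1% in them. Right, RPM (log axis) of arms made by 1 cluster only, with group as colour and title number as symbol.

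The X-linked relatives were higher in allografts by more than any member of miR-17-92 was. miR-363-3p, with the seed of miR-92a, was at 2.09, 1.91 and 2.18 RPM in normal corneas, 3.29, 10.8 and 6.45 in the isografts and 129.7, 118 and 198 in the allografts. Against isografts its log2 fold change was 4.34 (SE 0.40, limma adjusted p = 4.1e-09), and the groups did not overlap. miR-20b-5p, with the seed of miR-17, was at 0.636 to 2.27 RPM in normal corneas, 1.23 to 4.27 in the isografts and 30.6 to 50.2 in the allografts. Against normal corneas its log2 fold change was 4.18 (SE 0.39, limma adjusted p = 3.5e-10), and that of miR-17-2-3p was 3.91 (SE 0.35, adjusted p = 2.4e-10). miR-20b-5p and miR-17-2-3p reached 5 RPM only in allografts, and miR-363-3p in 0 normal corneas, 2 isografts and 3 allografts, so the filter kept all 3 through the allografts and these tests have the limit given for miR-18a-5p. In isografts against normal corneas miR-363-3p stood at 1.24 (SE 0.40, adjusted p = 0.0255), a call lost in 9 of 22 other settings, among them each normal library, isograft 34 or isograft 56 left out. miR-20b-5p at 0.87 (adjusted p = 0.137) and miR-17-2-3p at 0.25 (adjusted p = 0.723) did not pass.

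Of the 8 miRNAs listed as X-linked relatives and others with the seed of miR-92a, 6 were in the table and 4 were tested. Of those 4, 3 were higher in allografts than in normal corneas and none lower, against 23.1% higher and 24.2% lower over all 281. As 2 of the 3 passed the filter only through the allografts, the count is a description. Besides miR-363-3p and miR-20b-5p, this held for miR-92b-3p at 1.01 (SE 0.37, adjusted p = 0.0234), while miR-32-5p was at 0.19 (SE 0.45, adjusted p = 0.744). The call of miR-92b-3p was lost without normal 12, normal 56, allograft 12 or allograft 56 (adjusted p = 0.0609 to 0.109). Of the 12 names listed as other arms of the hairpins, 11 were in the table and miR-17-2-3p alone was tested.

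Low arms that were not tested gave the following values. miR-18a-3p was at 0.454, 0.273 and 0.454 RPM in normal corneas, 0.494, 1.82 and 1.54 in the isografts and 2.18, 2.73 and 4.36 in the allografts, without overlap between the groups. The gap between isografts and normal corneas lies within counting error, as the lowest isograft had 6 reads and the highest normal cornea 5. miR-92a-1-5p, the passenger of the chromosome 15 copy of miR-92a, was at 0.182, 0.0909 and 0.273 RPM in normal corneas, 0.165, 1.09 and 0.182 in the isografts and 0.727, 0.636 and 1.54 in the allografts, so isograft 34 lay above 2 of the 3 allografts. miR-19b-2-5p was at 0 in every library, and miR-92a-2-5p at 0 in all but allograft 34. miR-20a-3p was at 0 in all but isograft 56 among normal corneas and isografts, and at 0.182 to 0.545 RPM in allografts. Of the X-linked arms, miR-20b-3p was at most at 0.273 RPM outside the allografts and at 2.91 to 4.91 in them, and miR-363-5p was at 0 outside the allografts and at 0.454 to 0.909 in them. At these depths 3 reads were worth 0.247 to 0.273 RPM, the level that a count of 0 still allows. In miR-106b-25, miR-93-3p overlapped among the groups, at 2.54 to 4.18 RPM in normal corneas and 2.09 to 3.54 in allografts. miR-25-5p was at 0.363 to 0.727 RPM in normal corneas, 1.27 to 1.40 in the isografts and 1.09 to 1.27 in the allografts.

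Across the 9 libraries, Pearson correlations of log2(RPM + 1) had a median of 0.86 over the 15 pairs within miR-17-92, 0.83 over the 6 pairs within miR-106b-25 and 0.78 over the 24 pairs between them. The points share library and scaling, so any shift of a whole library adds to all of them. Outside the 10, the miRNAs most like the mean of miR-17-92 were miR-362-3p, miR-15a-5p, miR-340-5p, miR-425-5p and miR-16-5p, with r from 0.99 to 0.97 over the 9 libraries. Those most like the mean of miR-106b-25 were miR-34a-5p, miR-103-3p, miR-107-3p, miR-652-3p and miR-24-2-5p, with r from 0.98 to 0.94.

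Single libraries moved many members together. Isograft 12 was the lowest of all 9 libraries for 7 of the 10 members. Its miR-17-5p, miR-18a-5p, miR-19a-3p, miR-19b-3p, miR-20a-5p, miR-106b-5p and miR-93-5p were at 20.1% to 36.2% of their mean in the other isografts, and its miR-25-3p, miR-106b-3p and miR-92a-3p at 61.4%, 77.1% and 81.8%. Allograft 56 was the highest for all 10, at 142% to 242% of the mean of the other allografts, where the median tested miRNA was at 164%. Leaving out allograft 56, miR-17-5p, miR-18a-5p and miR-19a-3p were called against normal corneas and miR-18a-5p and miR-19a-3p against isografts.

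Cell type markers moved with the groups. The 6 leukocyte markers, none at 0 in any library, summed to 58.1 to 70.3 RPM in normal corneas, 171 to 345 in the isografts and 2350.2 to 4096 in the allografts, and 6 of 6 were higher in allografts against either other group, where 23.1% (normal corneas) and 13.5% (isografts) of all 281 were higher. The 8 epithelial markers summed to 271148 to 420587 RPM in normal corneas, 159213 to 193990 in the isografts and 37254 to 90969 in the allografts. Against normal corneas 7 of 8 were lower in allografts, where 24.2% of all 281 were lower, and 4 of 8 in isografts, where 4.63% were lower. The 2 endothelial markers summed to 346 to 857 RPM in normal corneas, 2095 to 6149.6 in the isografts and 2955 to 4874 in the allografts. The 5 stromal markers summed to 8070.4 to 9911 RPM, 15299.6 to 33580 and 10249 to 20138 in the same order. Against normal corneas 3 of these 5 were higher in allografts, where 23.1% of all 281 were higher. In isografts 4 of 5 were higher, where 16.7% were. In allografts miR-199a-3p at -0.20 and miR-199a-5p at 0.26 on the log2 scale overlapped the normal corneas. The part of these shifts in the changes of miR-17-92 was not tested.

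Scaling decides where the weaker changes fall. Median-of-ratios scaling, leaving miR-184 out of the RPM, and dividing by the listed sum shifted the log2 fold change of the median miRNA by 0.12, -0.42 and 0.70 in allografts against normal corneas. Under these scalings 9, 2 and 10 of the 10 members were higher, against 4 before. The called miRNAs kept their direction in each, whereas miR-92a-3p, miR-25-3p and miR-93-5p turned to -0.09, -0.05 and -0.35 without miR-184, none past the threshold. In allografts against isografts the shifts were 0.21, -0.15 and 0.41, with 9, 2 and 10 members higher against 3, and in isografts against normal corneas -0.09, -0.28 and 0.30. Over all tested miRNAs, allografts against normal corneas had 65 higher and 68 lower, against 105 and 92 by the median of ratios, 51 and 106 without miR-184 and 142 and 44 scaled to the listed sum. In isografts against normal corneas 47 were higher and 13 lower, against 67 and 47, 38 and 25, and 107 and 15 under the same 3 scalings. In allografts against isografts 38 were higher and 59 lower, against 80 and 89, 33 and 74, and 86 and 55. Ratios between miRNAs of 1 library are the same under all scalings.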

How the data were processed

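The deposited table gives RPM values computed by the authors for 765 mature miRNAs, and each of its 9 columns matched 1 library by title, with 0 unmatched. Per the labels' protocols, libraries were made with the Illumina TruSeq small RNA kit from 1 ug of Trizol-extracted RNA. BWA, bcl2fastq and the build rn6 are named per the submitters' processing notes. Tool versions, adapter trimming, annotation and the handling of multiply matching reads were not given in the sources used here. RPM moved in fixed steps, so whole reads were recovered, with 100% of values whole within 0.1 read. On these reads edgeR 4.0.16 called 114, 193 and 163 of 281 miRNAs and DESeq2 1.42.0 called 119, 195 and 171 (in order: isografts and allografts, each against normal corneas, then the grafts against each other).

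The model was limma 3.58.1 (R 4.3.3) with a mean-variance trend on log2(RPM + 1) of all 9 libraries, without covariates. It was also run on simulated data without shifts of whole libraries, so that run does not cover shifts like those of isograft 12 and allograft 56. The filter was 5 RPM in 3 libraries and the threshold an adjusted p of 0.05. miRNAs named are the 10 members, the related and marker lists, and for each cluster the 5 tested miRNAs with the highest correlation with its mean. The members and lists were chosen with earlier results of these data known. Alternatives were other pseudocounts, filters, scalings, variance models, samples in the fit, the title number as a block, the count tests and each library left out. Leaving miR-17-5p, miR-19b-3p and miR-92a-3p out of the ratio of the clusters was added after seeing the data. Intervals are exact binomial at 95%. Sequences are from RefSeq, build GRCr8, and no coordinate of rn6 was used.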

Additional observations from a re-analysis of the deposited data

How the results depend on the processing

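miR-18a-5p and miR-19a-3p kept their calls in both allograft comparisons in all 21 other settings that could test them, with log2 fold changes of 1.41 to 4.07 and 1.39 to 2.56 against normal corneas. Apart from the setting without a filter, these kept the filter of the main fit, which miR-18a-5p passed only through the allografts. Other calls depended on scaling and on the count of genes kept, and the cause was not tested. Members called in isografts against normal corneas numbered 2 when scaled to the listed sum, 1 by DESeq2 and 0 to 1 with single libraries left out, the 1 being without isograft 12. In allografts against normal corneas they numbered 1 with a filter at 50 RPM, which left out miR-18a-5p, miR-19a-3p and miR-19b-3p, 9 by the median of ratios, 2 without miR-184, 10 by the listed sum, 9 by edgeR, 9 by DESeq2 and 3 to 6 with single libraries left out. In allografts against isografts the numbers were 1, 9, 2, 10, 9 and 9 in that order, 5 with robust variance estimates and 2 to 6 with single libraries left out, with 5 without isograft 34 and 6 without isograft 56. With the title number as a replicate block there were 6 members in allografts against isografts in place of 3, 6 in allografts against normal corneas in place of 4, and 0 in isografts against normal corneas. No total over all miRNAs tested is set beside the block counts or the count with robust variance estimates. They thus do not show whether the members gained calls more than other miRNAs did. Same-numbered libraries did not regularly deviate together (correlations from -0.51 to 0.56, with 1, 0 and 1 of 3 libraries closest to their own number). The highest, 0.56, was that of allograft 56 with isograft 56. With 3 libraries a group this check has little power and cannot exclude a pairing. The numbers were not taken to pair the samples in the main fit. Over all miRNAs tested, isografts against normal corneas gave 60 calls, against 30 with the 50 RPM filter, 114 by the median of ratios, 122 by the listed sum, 114 by edgeR, 119 by DESeq2 and 42 to 80 with single libraries left out. Allografts against normal corneas gave 133, against 63 with the 50 RPM filter and 101 to 164 with single libraries left out. Allografts against isografts gave 97, against 44 with that filter, 169 by the median of ratios, 163 by edgeR, 171 by DESeq2 and 52 (without allograft 34) to 147 (without isograft 12) with single libraries left out. The log2 ratio of the clusters was -0.12 for isografts minus normal corneas, against 0.017 for the mean of log values, -0.0249 without miR-25-3p, -0.0518 without miR-92a-3p and miR-25-3p, -0.23 without the miRNAs with X-linked copies and -0.16 to -0.08 with single libraries left out. For allografts minus normal corneas it was 0.30, against 0.87 for the mean of log values, 0.69 without miR-92a-3p and miR-19b-3p, 0.75 without miR-92a-3p and miR-25-3p, 0.58 without the miRNAs with X-linked copies and 0.21 to 0.39 with single libraries left out. For allografts minus isografts it was 0.42, against 0.85, 0.84, 0.80 and 0.81 in that order and 0.34 to 0.52 with single libraries left out. Direction turned only for uncalled log2 fold changes besides that ratio. In isografts against normal corneas, scaling without miR-184 turned miR-17-5p to -0.093, miR-106b-5p to -0.23 and miR-25-3p to -0.10, and the listed sum turned miR-19b-3p to 0.26, miR-20a-5p to 0.20, miR-92a-3p to 0.29 and miR-93-5p to 0.10. miR-106b-5p was also at -0.045 by the median of ratios and -0.000211 by edgeR. With single libraries left out, miR-17-5p ran from -0.086 to 0.70, miR-19b-3p from -0.31 to 0.50, miR-20a-5p from -0.40 to 0.43, miR-92a-3p from -0.15 to 0.082, miR-106b-5p from -0.31 to 0.62 and miR-93-5p from -0.49 to 0.30. In allografts against normal corneas, scaling without miR-184 turned miR-92a-3p to -0.088, miR-93-5p to -0.35, miR-25-3p to -0.054 and miR-32-5p to -0.23, and with single libraries left out miR-93-5p ran from -0.20 to 0.24 and miR-32-5p from -0.094 to 0.35. In allografts against isografts miR-106b-3p was at -0.10 without miR-184, and with single libraries left out it ran from -0.14 to 0.24, miR-93-5p from -0.22 to 0.58 and miR-25-3p from -0.038 to 0.34. Depth limits miR-18a-5p, with 5 to 9 reads a library in normal corneas, and the passenger arms.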
